A study of Mus musculus with 7 samples.

Results

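Glycolysis and the genes induced by low oxygen were followed here as a set of 33 genes. The set covers glucose transport, each step of glycolysis, lactate production and export, the hypoxia-inducible factor HIF-1α with its oxygen sensors, and 6 genes that HIF is known to induce. Genes were taken by symbol and kept when their mean over the 7 libraries was at least 1 FPKM (fragments counted per length of transcript and per depth of the library). All 33 were in the table and 32 were kept, against 11378 of the 17920 genes in the whole table. Egln3, with a mean of 1.48 FPKM, lay just inside the limit, and Aldoc, with 0.689 FPKM, was the only member outside it and entered no test.

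RNA was measured in spleens of C57BL/6 mice aged 8 weeks, all of which had received 20 mg/kg of lipopolysaccharide (LPS, a bacterial cell wall component) by intraperitoneal injection. The wild-type groups held 2 libraries at 90 min and 2 at 6 h. The groups labelled GdX-/- (GdX-/Y in the protocol) lack GdX, also called UBL4A, a ubiquitin-like protein encoded on the X chromosome by Ubl4a, and held 2 libraries at 90 min and 1 at 6 h. No spleen without LPS was analysed here, so each value is a level after LPS and none can be set against a resting level. How the allele was made is not given in the sources used here. The design text counts 4 wild-type and 3 GdX-deficient mice, but no label ties a library to an animal, so the p-values below measure the spread between libraries, which may be technical.

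Glycolysis splits glucose into pyruvate in a series of steps, spending ATP in its early steps and gaining it in the later ones, and lactate dehydrogenase then turns pyruvate into lactate. Macrophages and neutrophils that meet LPS are known to raise glucose uptake and lactate release, and HIF-1α is known to drive many genes of this pathway both in low oxygen and in inflammation. In normal oxygen the prolyl hydroxylases EGLN1 and EGLN3 mark HIF-1α for destruction, so its activity is set largely at the protein level, which RNA does not show.

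The libraries were close in depth, with an estimated 18600000 to 20300000 mapped fragments each. Globin genes took from 7.73% to 30.9% of a library's FPKM sum, less at 6 h (7.73% to 13.6%) than at 90 min (19.2% to 30.9%). At 90 min Ubl4a itself stood at 5.62 and 7.5 FPKM in wild-type spleen, and at 4.03 and 5.69 FPKM where GdX is lacking, so the libraries overlapped. At 6 h it stood at 10.6 FPKM against 11.9 and 14.0 FPKM. Gm44504, an entry that overlaps Ubl4a, stood at 0.66 to 1.86 FPKM in the 3 GdX-deficient libraries and 14.5 to 51.1 FPKM in the 4 of wild type, apart in the direction the labels give. The spleen is a mixed organ, and in bulk RNA fewer cells of a type and less RNA per cell cannot be told apart. The summed level of 8 neutrophil markers was 1066 and 4823 FPKM in replicates 1 and 2 of GdX-deficient spleen at 90 min, against 752 to 1153 FPKM in wild type and 2641 FPKM in GdX-deficient spleen at 6 h. Over the 32 members, the SD of the log2 difference between replicates was 0.66 in GdX-deficient spleen at 90 min, 0.30 in wild type at 90 min and 0.42 in wild type at 6 h. Over all tested genes with a transcript length it was 0.51, 0.37 and 0.57, so there the wild-type pair at 6 h differed most.

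Time after LPS gave the clearest differences. In wild-type spleen 5 of the 32 members rose between 90 min and 6 h and none fell, where 10.7% of all tested genes changed (4.39% higher, 6.32% lower; limma, adjusted p under 0.05). The 5 were Pfkl and Pfkp, which encode subunits of phosphofructokinase, the committing step of glycolysis, Tpi1 (triose phosphate isomerase), Pgk1 (phosphoglycerate kinase) and Pkm (pyruvate kinase). The median difference of the members was 0.29 on the log2(FPKM + 1) scale, with 22 higher and 10 lower, against 0.05 over all tested genes. Without replicate 2 of the wild-type 6 h group it was 0.024 (16 higher, 16 lower), without replicate 1 of the 90 min group 0.039 (17 higher, 15 lower), and without the other replicate of each pair 0.49 and 0.45, so the lean moved with single libraries. That scale understates the change of low genes. For 23 members (15 higher, 8 lower) the wild-type libraries of the 2 times did not overlap, which was also so for 57.9% of all tested genes (30.3% higher, 27.6% lower). The calls rested on both wild-type libraries at 90 min: without replicate 1 limma called none of the 5 (adjusted p from 0.0555 for Pfkp to 0.180 for Pfkl; 3.96% of all genes called), and without replicate 2 Pfkp (0.0169) and Pkm (0.0481) only (4.83%). With the globin genes left out and the rest rescaled, 6.16% of all genes were called. Pfkl (1.12, limma adjusted p = 0.0674), Tpi1 (0.99, 0.0577) and Pgk1 (0.83, 0.0728) then missed the threshold at differences close to those reported. Over the 15 alternative settings, leave-outs included, the differences ran from 1.26 to 1.40 for Pkm, 1.31 to 1.84 for Pfkp and 1.07 to 1.35 for Pfkl. They ran from 0.93 to 1.27 for Tpi1 and 0.78 to 1.11 for Pgk1.

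In GdX-deficient spleen the single library at 6 h has no replicate, so its values are described without a test. Here and below, the 2-fold rule means a difference of at least 1 in mean log2(FPKM + 1), not in mean FPKM. Of the 32 members, 1 was at least 2-fold higher than the 90 min mean and outside both 90 min libraries (Hk3) and 2 were lower (Hk2 and Adm), against 5.73% of all tested genes (4.09% higher, 1.64% lower). Without replicate 1 at 90 min the differences of Hk2 (-1.12) and Adm (-1.25) were -0.31 and -0.53, under 2-fold, and without replicate 2 -1.93 and -1.97. Hk3 (1.04) was under 2-fold after quantile normalization (0.93) and with the transcript length trend removed (0.78). The median difference of the members was 0.29, with 25 higher and 7 lower, and that of all tested genes was 0.25. After quantile normalization the members' median was 0.14 (18 higher, 14 lower), and with the transcript length trend removed 0.025 (17 higher, 15 lower), where all genes had medians of 0.024 and 0.0025. For 23 members the 6 h library lay outside both 90 min libraries (19 higher, 4 lower), as it did for 72.6% of all tested genes (56.8% higher, 15.8% lower). All 5 genes that rose in wild type lay above both GdX-deficient 90 min libraries at 6 h, by 0.28 to 0.85 on the log2 scale. For 15 members the 6 h libraries lay outside the 90 min libraries in the same direction in both genotypes, 13 higher and 2 lower, which held for 33.6% of all tested genes (24.0% higher, 9.60% lower). With genotype as a covariate, 3 libraries at 6 h against 4 at 90 min, limma called 3 members higher (Pkm, Tpi1 and Pfkl) and none lower, against 5.44% of all tested genes (2.79% higher, 2.65% lower). Without replicate 2 of the wild-type 6 h group, or without wild-type replicate 1 or 2 at 90 min, it called 0 members (and 1.56%, 1.35% and 1.64% of all genes). Over the 14 alternative settings the differences ran from 0.96 to 1.38 for Pkm, 0.83 to 1.10 for Tpi1 and 0.84 to 1.23 for Pfkl.

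**Figure D1:**
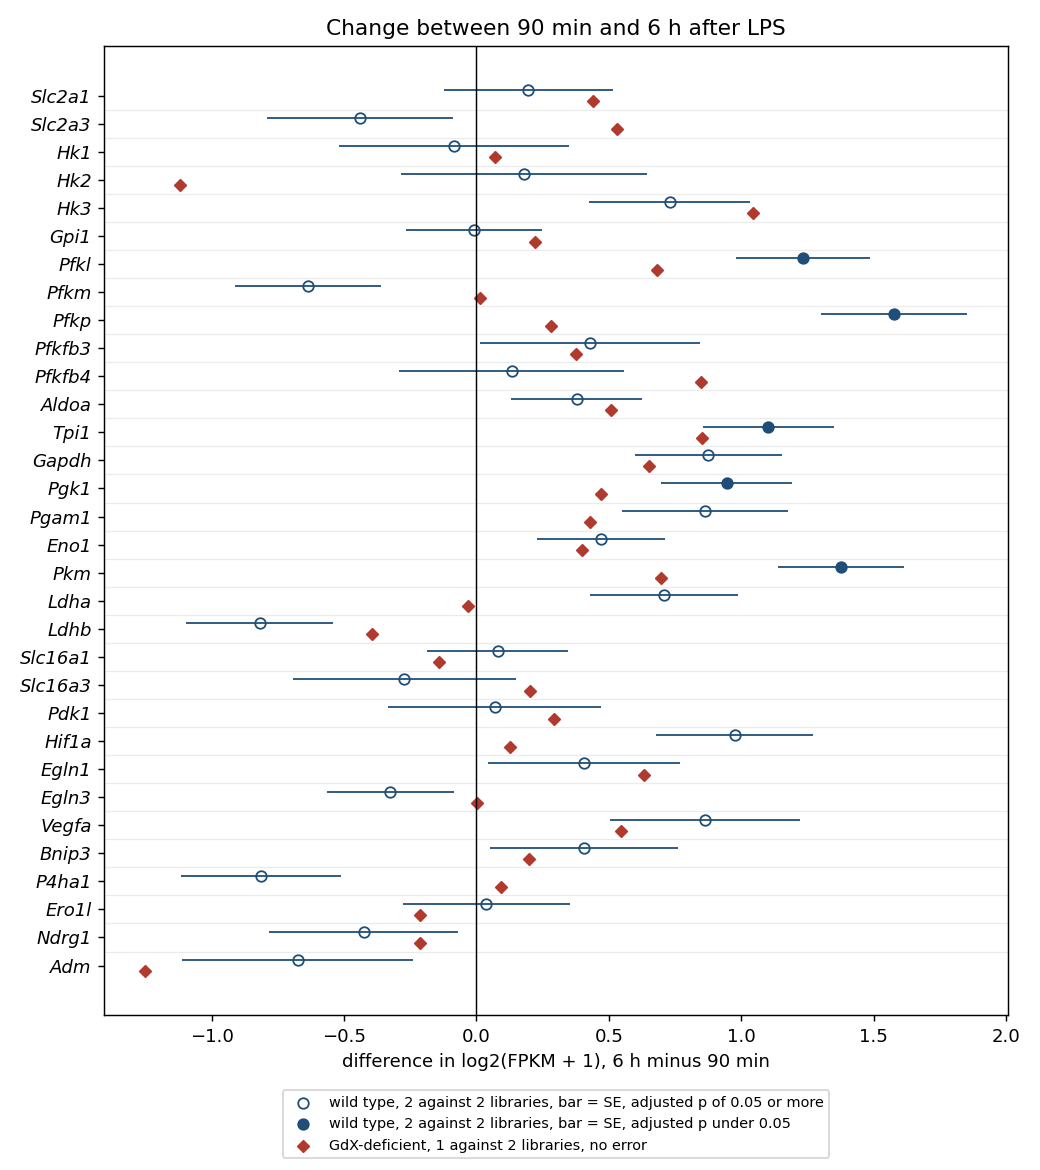
Difference in log2(FPKM + 1) between 6 h and 90 min after LPS for the 32 members in pathway order, for wild type (circles with standard errors, 2 against 2 libraries, filled where the limma adjusted p was under 0.05) and GdX-deficient spleen (diamonds, 1 against 2 libraries, no error). The 5 filled circles, at 0.94 to 1.58, are Pfkl, Pfkp, Tpi1, Pgk1 and Pkm, and the diamonds of these genes lie at 0.28 to 0.85.

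Genotype gave no member past the threshold. At 90 min limma called 0 of the 32 (5 had an unadjusted p under 0.05, and the lowest adjusted p was 0.621), against 0.0176% of all tested genes. With time as a covariate, 3 GdX-deficient against 4 wild-type libraries, it called 0 of the 32 (8 with an unadjusted p under 0.05, lowest adjusted p 0.101 for Ldha), against 0.0439% of all tested genes (0.0352% higher, 0.00879% lower). At 6 h, where 1 library stood against 2, 7 members were at least 2-fold apart and outside both wild-type libraries, 3 higher (Slc2a3, Hk1 and Pfkfb4) and 4 lower (Hk2, Pfkp, Ldha and Adm), against 22.0% of all tested genes (16.5% higher, 5.47% lower). The fold is on the log2(FPKM + 1) scale: in mean FPKM Hk1 was 1.91-fold higher and counted, and Hif1a 2.02-fold lower and not. With the globin genes left out the rule counted 6 higher and 3 lower (28.2% of all genes), with Hk3, Pdk1 and Slc16a3 added. After quantile normalization it counted 1 and 4 (16.1%). With the length trend removed it counted 1 and 8 (16.65%), with Hif1a, Pfkl, Pgk1 and Pkm added as lower. Pfkfb4, Hk2, Ldha and Adm stayed past this rule without either wild-type library at 6 h, after quantile normalization, with the globin genes left out and with the length trend removed. Slc2a3 (0.89) and Hk1 (0.44) did not without wild-type replicate 1, nor after quantile normalization (0.74 and 0.87) or with the length trend removed (0.72 and 0.54), and Pfkp did not without wild-type replicate 2 (-0.89) or with the globin genes left out (-0.88). A limma fit that took its spread from the 3 groups of 2 libraries, added after seeing the data, called none of these 7 or any other member (11 with an unadjusted p under 0.05, lowest adjusted p 0.0528 for Ldha, with 3.96% of all tested genes called).

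The genotype differences of the members leaned lower. Their median was -0.13 at 90 min (22 of 32 lower), -0.27 at 6 h (19 of 32) and -0.18 with time as a covariate (19 of 32), while the medians of all tested genes were 0.07, 0.32 and 0.16. These medians depended on scaling. With the globin genes left out and the rest rescaled to 1 sum per library, the members' medians were 0.069 at 90 min, 0.044 with time as a covariate and -0.053 at 6 h (17 of 32 lower), and those of all genes 0.25, 0.36 and 0.55. Leaving out wild-type replicate 1 or 2 at 6 h gave -0.39 or -0.10 for that time. Leaving out 1 library moved the 90 min median from -0.18 to -0.031, without wild-type replicates 1 and 2 of that time, and the one with time as a covariate from -0.22, without GdX-deficient replicate 2 at 90 min, to -0.11, without wild-type replicate 2 at 6 h. Cell type markers moved with genotype too. At 90 min red cell precursor markers were higher in GdX-deficient spleen for 7 of 7 (median 0.87) and neutrophil markers for 8 of 8 (median 1.31), while platelet and megakaryocyte markers were lower for 5 of 5 (median -0.46), none past the threshold. At 6 h, by the fold rule, 6 of 7 red cell precursor markers (median 2.12), 7 of 8 of neutrophils (1.63), 4 of 6 of B cells (1.51), 4 of 6 of T cells (1.10) and 2 of 6 of red pulp macrophages (0.95) were higher. Their part in the members' differences was not tested. At 90 min the genotypes were apart, every library of one above every library of the other, for 15 members (5 higher, 10 lower) and 47.5% of all tested genes (24.1% higher, 23.4% lower). At 6 h the GdX-deficient library was outside the wild-type pair for 28 members (11 higher, 17 lower) and 80.3% of all tested genes (54.9% higher, 25.3% lower). For 13 members this was so at both times with one direction, against 32.1% of all tested genes (19.0% higher, 13.0% lower). Of these, 4 were higher in GdX-deficient spleen (Hk1, Hk3, Pfkfb4 and Pdk1) and 9 lower (Pfkl, Tpi1, Pgk1, Pkm, Ldha, Slc16a1, Egln3, Ndrg1 and Adm).

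**Figure D2:**
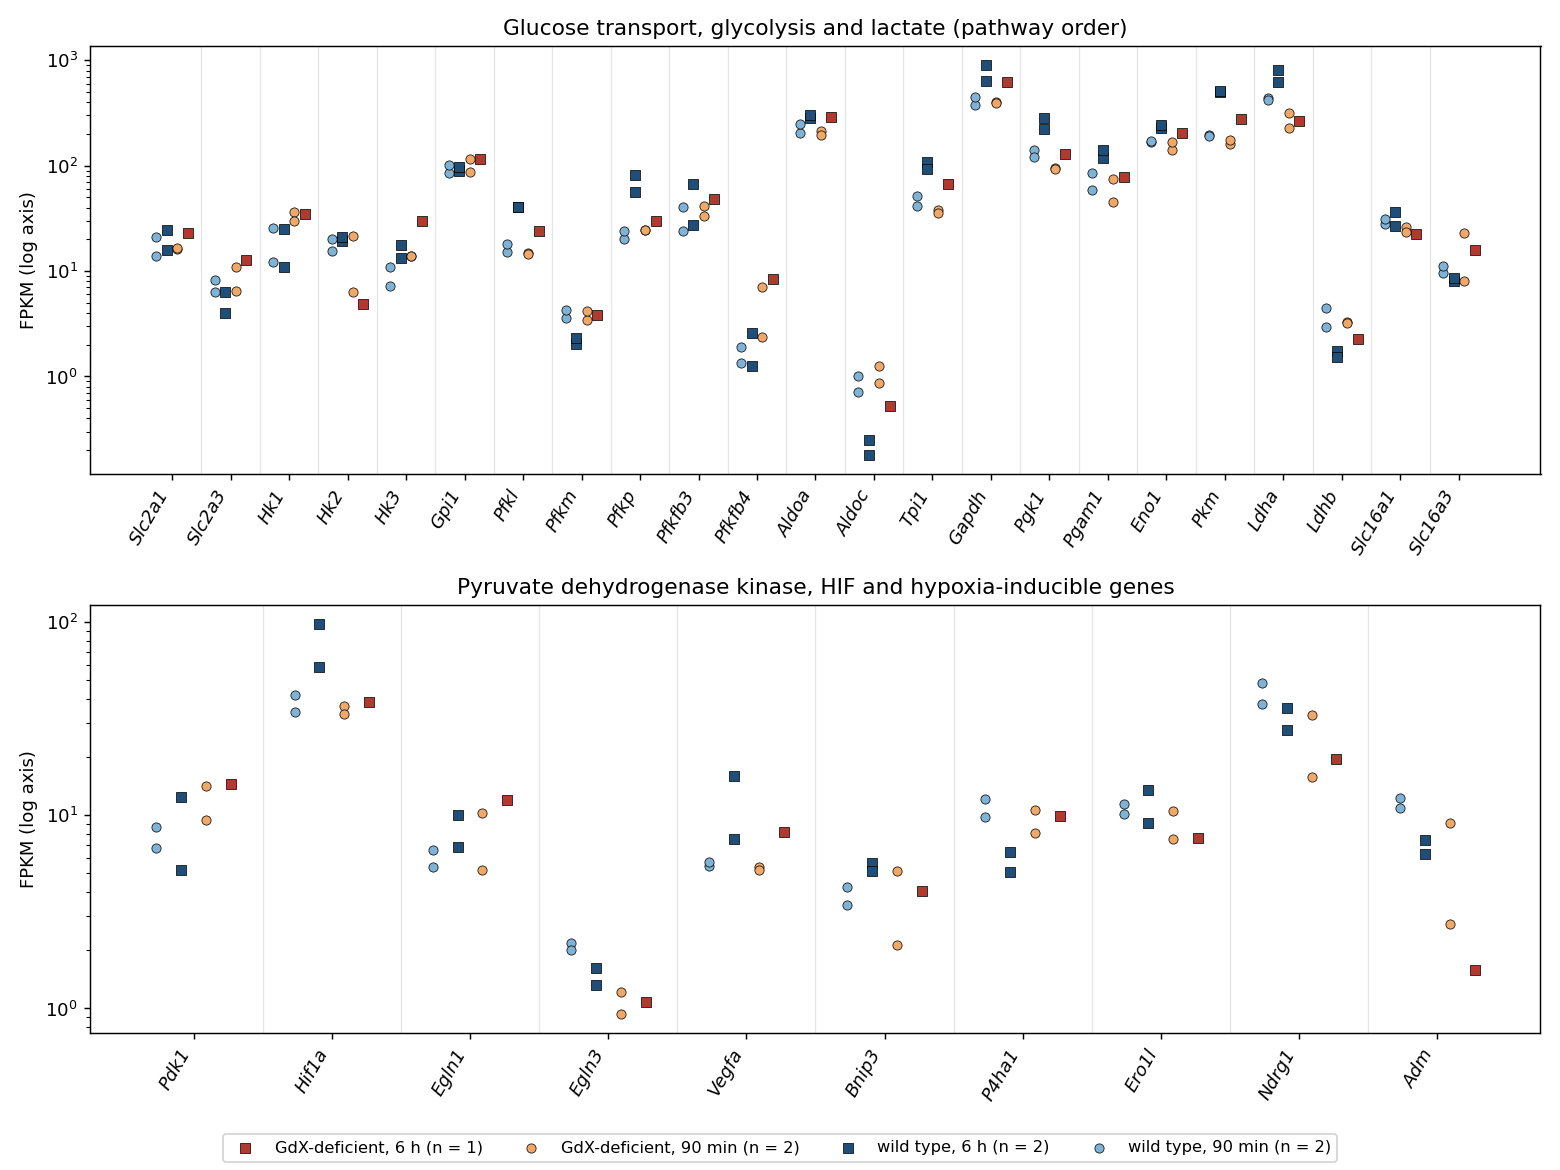
FPKM of the 33 listed genes in each library on a log axis, glycolysis in the upper panel and Pdk1, HIF and hypoxia-inducible genes in the lower (light blue circles, wild type at 90 min; dark blue squares, wild type at 6 h; orange circles, GdX-deficient at 90 min; red square, GdX-deficient at 6 h). Gapdh, Ldha, Pkm and Aldoa have the highest means over the 7 libraries, with values between 161 and 894 FPKM, and Aldoc lies at 0.18 to 1.27 FPKM.

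Glucose enters the cell through the transporters GLUT1 (Slc2a1) and GLUT3 (Slc2a3). Slc2a1 stood at 13.8 and 21.1 FPKM in wild type at 90 min, 15.7 and 24.7 FPKM at 6 h, 16.4 and 16.7 FPKM in GdX-deficient spleen at 90 min and 22.8 FPKM at 6 h. Wild type overlapped between times, and the GdX-deficient libraries lay within the wild-type range at both times. The difference was -0.05 between genotypes at 90 min and 0.20 between times in wild type. Slc2a3 stood at 6.40 and 8.20 FPKM in wild type at 90 min, 4.02 and 6.37 FPKM at 6 h, 6.47 and 11.03 FPKM in GdX-deficient spleen at 90 min and 12.7 FPKM at 6 h. It lay lower at 6 h than at 90 min in wild type, though the nearest libraries of the 2 times almost met, and higher at 6 h in GdX-deficient spleen. The library at 6 h was above both wild-type libraries of that time, by 1.17 on the log2 scale. FPKM is per length, so the 2 transporters were set side by side: Slc2a3 made up 20.4% and 20.5% of their sum in wild type at 6 h and 28.0% to 39.8% in the other 5 libraries. The wild-type replicates differed along transcript length, as given below, and the part of this in the isoform shares was not tested.

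Hexokinases trap glucose as glucose 6-phosphate. HK1 is the widespread form, HK2 the form most often induced by hormones and by HIF, and HK3 a form found mainly in myeloid cells. Hk2 stood at 15.5 and 20.3 FPKM in wild type at 90 min, then 19.3 and 21.3 FPKM at 6 h, and at 21.3 and 6.29 FPKM in GdX-deficient spleen at 90 min and 4.87 FPKM at 6 h. Replicate 1 of the GdX-deficient group at 90 min lay above the wild-type libraries of that time and replicate 2 far below them, so the groups overlapped, while at 6 h the library was 4.16-fold below the wild-type mean. The 90 min difference of -0.55 (SE 0.46, limma adjusted p = 0.664) turned to 0.25 when replicate 2 was left out. With time as a covariate it was -1.07 (SE 0.39, limma adjusted p = 0.128).

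Hk1 stood at 12.2 and 25.8 FPKM in wild type at 90 min, 11.0 and 25.2 FPKM at 6 h, 36.4 and 29.6 FPKM in GdX-deficient spleen at 90 min and 34.5 FPKM at 6 h. All 3 GdX-deficient libraries were above all 4 of wild type, but the wild-type replicates were themselves more than 2-fold apart at both times. The difference with time as a covariate was 0.91 (SE 0.32, limma adjusted p = 0.124). Hk3 stood at 7.16 and 10.9 FPKM in wild type at 90 min, 13.4 and 17.6 FPKM at 6 h, 14.0 and 13.8 FPKM in GdX-deficient spleen at 90 min and 29.7 FPKM at 6 h. It was higher at 6 h in both genotypes without overlap, by 0.73 in wild type (limma adjusted p = 0.150) and 1.04 in GdX-deficient spleen, and higher in GdX-deficient spleen at both times (0.72 with time as a covariate, limma adjusted p = 0.116). Csf3r, S100a8 and the other neutrophil markers were higher on average in GdX-deficient spleen for 8 of 8 genes at 90 min and 7 of 8 at 6 h, and their part in these differences was not tested.

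As shares of the hexokinase sum, Hk2 made up 33.2% to 44.4% in the 4 wild-type libraries, 29.7% and 12.6% in GdX-deficient spleen at 90 min and 7.05% at 6 h. Hk3 made up 19.2% to 30.7% in wild type, 19.5% and 27.7% in GdX-deficient spleen at 90 min, within that range, and 42.95% at 6 h. Hk1 made up 25.2% to 45.2% in wild type and 50% to 59.6% in GdX-deficient spleen. The sum itself ranged from 34.9 to 71.7 FPKM and was lowest in a wild-type library. The shares of Hk1 and Hk2 did not overlap between the genotypes, while those of Hk3 did at 90 min.

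**Figure D3:**
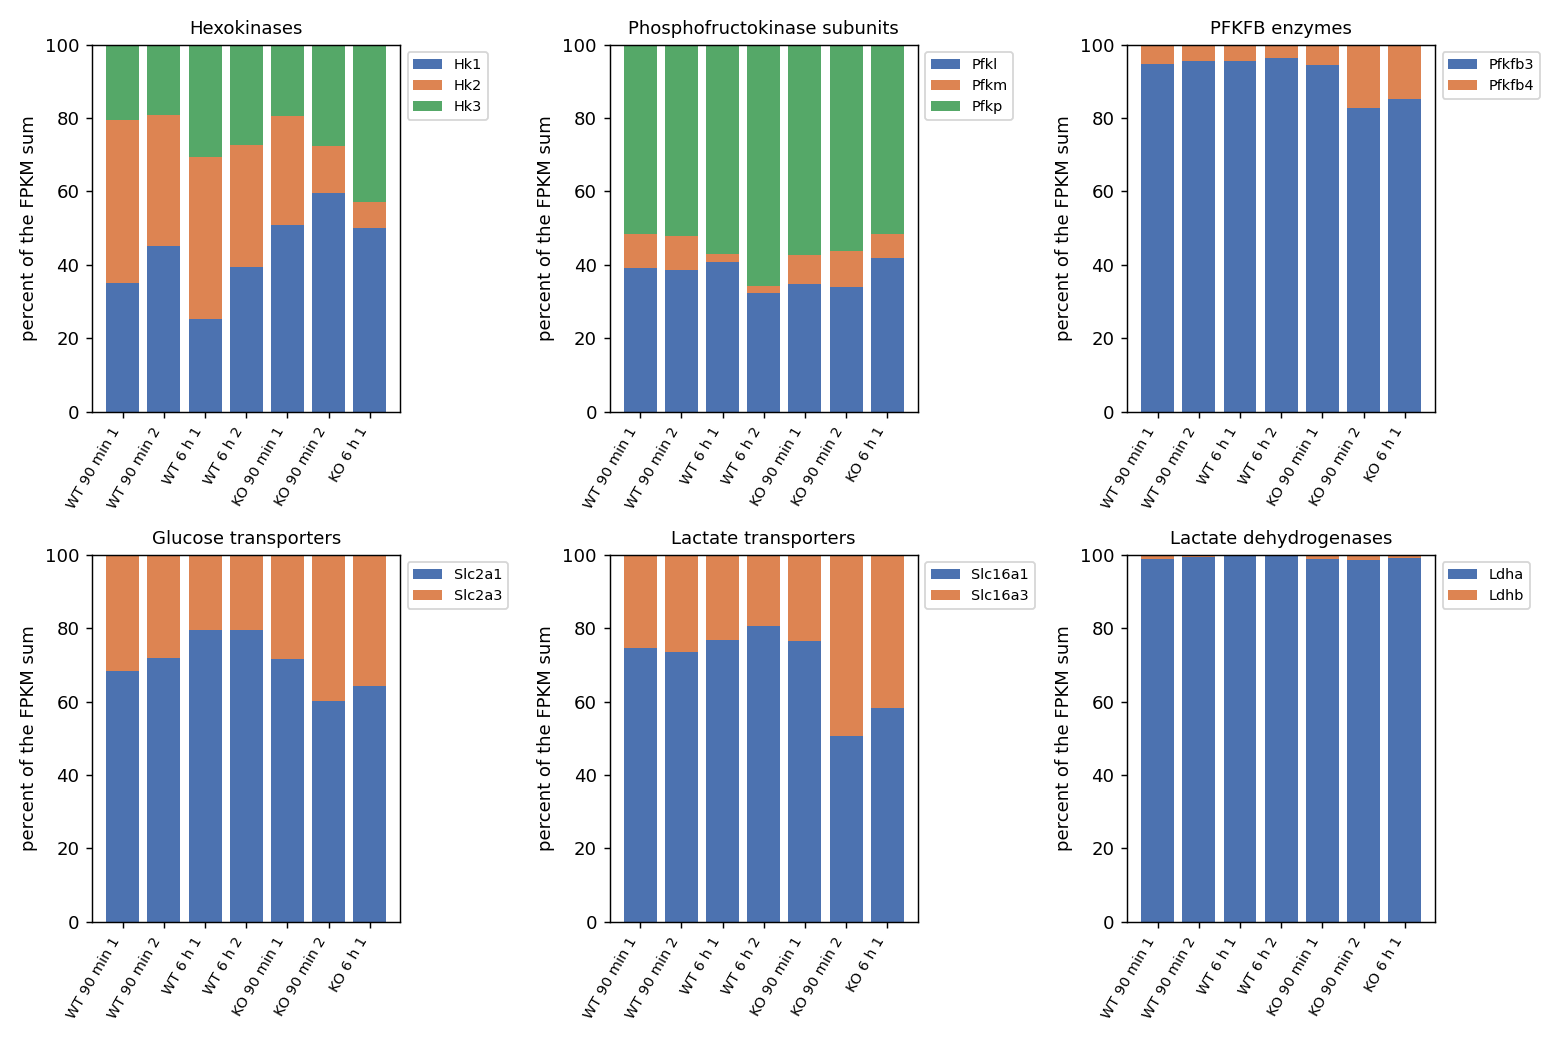
Share of each isoform in the FPKM sum of its family, in percent, for each of the 7 libraries (WT, wild type; KO, GdX-deficient). Hk2 takes 33.2% to 44.4% in the wild-type bars and 7.05% in the KO 6 h bar, Pfkm is under 2.1% in the 2 wild-type 6 h bars only, and Pfkfb4 and Slc16a3 are highest in KO 90 min 2 and KO 6 h 1.

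Glucose phosphate isomerase, Gpi1, turns glucose 6-phosphate into fructose 6-phosphate. It stood at 84.4 and 102 FPKM in wild type at 90 min, 88.6 and 96.2 FPKM at 6 h, 86.7 and 116 FPKM in GdX-deficient spleen at 90 min and 117 FPKM at 6 h. The groups overlapped apart from the 6 h library of GdX-deficient spleen, and its time difference in wild type was -0.01 (SE 0.26, limma adjusted p = 0.990).

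Phosphofructokinase commits the sugar to glycolysis and is built from the liver (Pfkl), muscle (Pfkm) and platelet (Pfkp) subunits. Pfkp stood at 20.1 and 24.2 FPKM in wild type at 90 min, 56.1 and 81.8 FPKM at 6 h, 24.4 FPKM in both GdX-deficient libraries at 90 min and 29.8 FPKM at 6 h. Both wild-type libraries at 6 h were far above every other library. Pfkp rose 3.11-fold in mean FPKM in wild type, by 1.58 in log2 units (SE 0.28, limma adjusted p = 0.0104), and stood 1.22-fold higher at 6 h in GdX-deficient spleen. The genotypes differed by 0.14 at 90 min (limma adjusted p = 0.855) and by -1.16 at 6 h, where the GdX-deficient library lay 2.31-fold below the wild-type mean.

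Pfkl stood at 15.2 and 18.0 FPKM in wild type at 90 min, 40.18 and 40.25 FPKM at 6 h, 14.8 and 14.7 FPKM in GdX-deficient spleen at 90 min and 24.2 FPKM at 6 h. As for Pfkp, the GdX-deficient library at 6 h lay between the wild-type libraries of the 2 times. Pfkl rose 2.43-fold in wild type (log2 difference 1.23, SE 0.25, limma adjusted p = 0.0181) and also with genotype as a covariate (1.01, SE 0.21, limma adjusted p = 0.0289). Pfkm stood at 3.60 and 4.29 FPKM in wild type at 90 min, then 2.04 and 2.32 FPKM at 6 h, against 3.41 and 4.22 FPKM in GdX-deficient spleen at 90 min and 3.84 FPKM at 6 h. It was thus the subunit that lay lower at 6 h in wild type, by 0.63 (SE 0.28, limma adjusted p = 0.165), and its share of the subunit sum was 2.08% and 1.87% there against 6.63% to 9.75% in the other 5 libraries. The subunit sum was 38.9 and 46.5 FPKM in wild type at 90 min, then 98.3 and 124 FPKM at 6 h, and 42.6 and 43.3 FPKM in GdX-deficient spleen at 90 min and 57.9 FPKM at 6 h.

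PFKFB3 and PFKFB4 make and remove fructose 2,6-bisphosphate, the strongest activator of phosphofructokinase. Pfkfb3 stood at 24.2 and 40.6 FPKM in wild type at 90 min, 27.2 and 66.5 FPKM at 6 h, 41.2 and 33.6 FPKM in GdX-deficient spleen at 90 min and 48.5 FPKM at 6 h. The wild-type replicates were far apart, and the groups overlapped by genotype at both times. Pfkfb4 stood at 1.33 and 1.89 FPKM in wild type at 90 min, 1.25 and 2.60 FPKM at 6 h, 2.37 and 7 FPKM in GdX-deficient spleen at 90 min and 8.35 FPKM at 6 h. It was the member with the largest positive genotype difference: 1.00 at 90 min (SE 0.42, limma adjusted p = 0.621), 1.72 at 6 h and 1.29 with time as a covariate (SE 0.34, limma adjusted p = 0.103), and its 2 highest levels were in the 2 libraries with the highest neutrophil marker sums, whose part in it was not tested.

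Aldolase and triose phosphate isomerase split fructose 1,6-bisphosphate and interconvert the 2 products. Aldoa stood at 204 and 249 FPKM in wild type at 90 min, 282 and 305 FPKM at 6 h, 212 and 195 FPKM in GdX-deficient spleen at 90 min and 290.1 FPKM at 6 h. The 6 h libraries lay above the 90 min ones in both genotypes, by 0.38 in wild type (limma adjusted p = 0.346) and 0.51 in GdX-deficient spleen, and Aldoa made up at least 99.4% of the aldolase sum in each library. Tpi1 stood at 51.9 and 41.2 FPKM in wild type at 90 min, 108 and 93.0 FPKM at 6 h, 37.6 and 35.7 FPKM in GdX-deficient spleen at 90 min and 66.9 FPKM at 6 h. It rose 2.16-fold in wild type (log2 difference 1.10, SE 0.25, limma adjusted p = 0.0246) and stood 1.83-fold higher at 6 h in GdX-deficient spleen, and the GdX-deficient libraries were the lower ones at both times (-0.43 with time as a covariate, limma adjusted p = 0.195).

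The payoff phase of the pathway, from Gapdh to Pkm, stood higher at 6 h for all 5 genes in both genotypes, as did 53.1% of all tested genes in wild type and 75.1% in GdX-deficient spleen. Of the 5, Pgk1 and Pkm passed the test in wild type, where 10.7% of all tested genes did. Pkm encodes pyruvate kinase, which makes pyruvate and ATP. It stood at 193 and 193 FPKM in wild type at 90 min, 496 and 512 FPKM at 6 h, 161 and 177 FPKM in GdX-deficient spleen at 90 min and 274 FPKM at 6 h. The replicates lay close together, and the GdX-deficient library at 6 h fell between the wild-type times. Pkm rose 2.61-fold in wild type (log2 difference 1.38, SE 0.24, limma adjusted p = 0.00999) and by 1.11 with genotype as a covariate (SE 0.21, limma adjusted p = 0.0215), and stood 1.62-fold higher at 6 h in GdX-deficient spleen. A table at the gene level does not separate its M1 and M2 splice forms.

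Pgk1 encodes phosphoglycerate kinase, the first ATP-making enzyme of the pathway, on the X chromosome as Ubl4a is. It stood at 141 and 121 FPKM in wild type at 90 min, 283 and 225 FPKM at 6 h, 94.3 and 92.9 FPKM in GdX-deficient spleen at 90 min and 130.2 FPKM at 6 h. No genotype or time group overlapped its counterpart. Pgk1 rose 1.94-fold in wild type (log2 difference 0.94, SE 0.25, limma adjusted p = 0.0413), and its genotype difference was -0.48 at 90 min, -0.95 at 6 h and -0.66 with time as a covariate (SE 0.21, limma adjusted p = 0.110).

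Gapdh, the enzyme that adds phosphate and makes NADH, had the highest mean over the 7 libraries of all members, although Ldha was above it in replicate 1 of both wild-type groups. It stood at 376 and 452 FPKM in wild type at 90 min, 642 and 894 FPKM at 6 h, 401 and 389.6 FPKM in GdX-deficient spleen at 90 min and 622 FPKM at 6 h. It was higher at 6 h without overlap in both genotypes, by 0.88 in wild type (SE 0.28, limma adjusted p = 0.0751). Pgam1 (phosphoglycerate mutase) stood at 59.1 to 84.9 FPKM in wild type at 90 min, 119 to 141 FPKM at 6 h, 44.8 to 74.6 FPKM in GdX-deficient spleen at 90 min and 78.1 FPKM at 6 h. Its time difference was 0.86 in wild type (SE 0.31, limma adjusted p = 0.107). Eno1 (enolase) stood at 167 to 171 FPKM in wild type at 90 min, 225 to 244 FPKM at 6 h, 141 to 169 FPKM in GdX-deficient spleen at 90 min and 204 FPKM at 6 h, with a time difference of 0.47 (SE 0.24, limma adjusted p = 0.231). The genotype differences of the 5 payoff genes were all below 0 at each time, from -0.06 (Gapdh) to -0.48 (Pgk1) at 90 min and from -0.20 (Eno1) to -0.95 (Pgk1) at 6 h, none past the threshold. After quantile normalization or with the globin genes left out, 3 of the 5 (Gapdh, Eno1 and Pkm) lay above 0 at 90 min and 1 (Eno1) at 6 h. Several genes of this pathway, Gapdh among them, have near-identical processed pseudogenes, and how shared reads were assigned is not given in the sources used here, so their levels are uncertain to that extent.

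The sequences just upstream of the promoter starts of the genes that rose were examined because these genes moved together. HIF is known to bind the core letters ACGTG or GCGTG. Windows of 250 bases before each RefSeq promoter start (GRCm38.p6) were read on the gene's strand. A gene can have several such starts, and some lie inside the gene. The letters were searched on both strands, overlapping matches counted once. Of the 32 members 29 had a window in the table, and 27 of the 29 (93.1%) had a match in at least 1 window, against 60.8% of the 9146 tested genes with a window. The members were listed as glycolysis and hypoxia-inducible genes, so this share does not depend on the LPS values. They also had more windows per gene, 42 for 29 genes against 11635 for 9146, which favours a match in at least 1. Counted by window, 34 of 42 member windows held a match (median GC content 61.0%), against 38.6% of all 32851 windows (median GC 52.4%) and 55% of the 11635 windows of tested genes (median GC 59.2%). Pgk1 had 2 matches, Pfkp 3, Pfkl 1, Pkm 1 in the second of its 2 windows, and Tpi1 none. The windows of Pgk1, Pfkp and Pfkl are printed to show where the letters lie, 5′ to 3′ on the gene's strand with matches in capitals, cut back to bases outside every exon annotated by GENCODE M21. Pgk1 is chrX:106186850-106187099 on the plus strand, Pfkp is chr13:6648778-6649021 and Pfkl is chr10:78009808-78010004, both on the minus strand.
Pgk1: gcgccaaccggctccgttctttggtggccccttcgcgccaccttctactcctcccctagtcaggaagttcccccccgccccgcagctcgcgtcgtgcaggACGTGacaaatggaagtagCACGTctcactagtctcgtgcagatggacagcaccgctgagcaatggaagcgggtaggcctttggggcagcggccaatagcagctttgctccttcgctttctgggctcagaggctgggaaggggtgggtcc
Pfkp: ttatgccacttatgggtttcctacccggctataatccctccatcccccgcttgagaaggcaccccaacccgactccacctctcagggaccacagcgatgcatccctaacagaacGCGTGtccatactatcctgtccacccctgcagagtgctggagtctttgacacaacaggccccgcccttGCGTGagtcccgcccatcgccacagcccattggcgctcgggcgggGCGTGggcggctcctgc
Pfkl: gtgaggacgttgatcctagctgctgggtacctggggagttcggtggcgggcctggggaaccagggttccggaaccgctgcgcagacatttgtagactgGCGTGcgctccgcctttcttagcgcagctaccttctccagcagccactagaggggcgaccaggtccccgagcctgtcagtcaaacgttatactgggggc
In Pgk1 the first match begins 150 bases before the gene start and the second, which reads CACGT because it lies on the other strand, 131 bases before it. In Pfkp they begin 136, 68 and 23 bases before the promoter start used, which lies inside the gene as listed (chr13:6579874-6649060). In Pfkl the match begins 99 bases before the gene start. A match is a run of letters, not evidence of binding, and the genes without one were not searched beyond this window.

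Lactate dehydrogenase turns pyruvate into lactate and restores NAD for the Gapdh step. Ldha stood at 439 and 423 FPKM in wild type at 90 min, 801 and 620.2 FPKM at 6 h, 318 and 228 FPKM in GdX-deficient spleen at 90 min and 263 FPKM at 6 h. Every GdX-deficient library was below every wild-type library, and only the wild-type pair at 6 h stood above its 90 min pair. The wild-type mean was 1.65-fold higher at 6 h without passing the threshold (log2 difference 0.71, SE 0.28, limma adjusted p = 0.135), and the 6 h to 90 min ratio was 0.964 in GdX-deficient spleen. The genotype difference was -0.68 at 90 min (SE 0.28, limma adjusted p = 0.621), -1.42 at 6 h, a 2.70-fold lower level, and -0.97 with time as a covariate (SE 0.24, limma adjusted p = 0.101). Of all 32 members Ldha had the lowest adjusted p for genotype with time as a covariate, while at 90 min several members shared its value.

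Ldhb, the isoform that favours the return of lactate to pyruvate, was a minor form, at most 1.40% of the sum in each library. It stood at 4.43 and 2.98 FPKM in wild type at 90 min, 1.74 and 1.54 FPKM at 6 h, 3.32 and 3.23 FPKM in GdX-deficient spleen at 90 min and 2.25 FPKM at 6 h. It was lower at 6 h in both genotypes without overlap, by 0.82 in wild type (SE 0.28, limma adjusted p = 0.0910) and 0.40 in GdX-deficient spleen.

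Lactate leaves the cell through the monocarboxylate transporters MCT1 (Slc16a1) and MCT4 (Slc16a3, the HIF-inducible one). Slc16a1 stood at 28.0 and 30.9 FPKM in wild type at 90 min, 26.9 and 36.0 FPKM at 6 h, 26.4 and 23.4 FPKM in GdX-deficient spleen at 90 min and 22.4 FPKM at 6 h. Slc16a3 stood at 9.55 and 11.1 FPKM in wild type at 90 min, 8.09 and 8.60 FPKM at 6 h, 8.14 and 22.95 FPKM in GdX-deficient spleen at 90 min and 16.0 FPKM at 6 h. The GdX-deficient libraries were the lower ones for Slc16a1 at both times, by -0.32 with time as a covariate (limma adjusted p = 0.327). For Slc16a3 they lay on both sides of wild type at 90 min and above it at 6 h (0.58 with time as a covariate, limma adjusted p = 0.257). Slc16a3 made up 49.5% and 41.7% of the pair's sum in the GdX-deficient libraries with the highest neutrophil marker sums, replicate 2 at 90 min and the 6 h library, and 19.3% to 26.4% in the other 5.

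Pdk1, a kinase that inhibits pyruvate dehydrogenase inside mitochondria, stood at 6.74 and 8.73 FPKM in wild type at 90 min, 5.18 and 12.4 FPKM at 6 h, 9.47 and 14.2 FPKM in GdX-deficient spleen at 90 min and 14.5 FPKM at 6 h. The GdX-deficient libraries were above wild type at both times (0.63 with time as a covariate, SE 0.30, limma adjusted p = 0.203), and its wild-type replicates at 6 h were more than 2-fold apart.

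Hif1a, the oxygen-regulated subunit of HIF, stood at 34.3 and 41.9 FPKM in wild type at 90 min, 58.3 and 97.6 FPKM at 6 h, 36.9 and 33.6 FPKM in GdX-deficient spleen at 90 min and 38.6 FPKM at 6 h. The wild-type libraries at 6 h stood above every other library. The wild-type mean was 2.05-fold higher at 6 h, by 0.98 in log2 units (SE 0.30, limma adjusted p = 0.0667), and the GdX-deficient ratio was 1.09. The GdX-deficient library lay below both wild-type libraries at 6 h by 0.95, while at 90 min the genotypes overlapped (-0.10).

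Egln1 stood at 5.42 to 6.64 FPKM in wild type at 90 min, 6.82 to 10.04 FPKM at 6 h, 5.20 to 10.2 FPKM in GdX-deficient spleen at 90 min and 11.9 FPKM at 6 h. Egln3 stood at 2.19 and 2.00 FPKM in wild type at 90 min, 1.33 and 1.62 FPKM at 6 h, 1.22 and 0.94 FPKM in GdX-deficient spleen at 90 min and 1.08 FPKM at 6 h. Egln1 was higher at 6 h in both genotypes (0.41 in wild type, limma adjusted p = 0.502). Egln3 was lower in GdX-deficient spleen at both times, by -0.58 at 90 min (SE 0.24, limma adjusted p = 0.621), at levels close to 1 FPKM.

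The 6 hypoxia-inducible targets did not move as a group with time in wild type, 3 higher and 3 lower with none past the threshold. Adm, which encodes the vasodilator peptide adrenomedullin, stood at 10.9 and 12.2 FPKM in wild type at 90 min, 7.47 and 6.32 FPKM at 6 h, 9.14 and 2.74 FPKM in GdX-deficient spleen at 90 min and 1.59 FPKM at 6 h. It was lower at 6 h and lower in GdX-deficient spleen in every pair of groups without overlap, most so at 6 h, where the wild-type mean was 4.34-fold the GdX-deficient level. Its genotype difference was -1.03 at 90 min (SE 0.44, limma adjusted p = 0.621) and -1.26 with time as a covariate (SE 0.33, limma adjusted p = 0.104). Ndrg1, a stress-responsive gene, stood at 37.9 and 48.3 FPKM in wild type at 90 min, 27.6 and 36.1 FPKM at 6 h, 33.2 and 15.7 FPKM in GdX-deficient spleen at 90 min and 19.6 FPKM at 6 h, and was lower in GdX-deficient spleen at both times (-0.79 with time as a covariate, SE 0.27, limma adjusted p = 0.120).

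Vegfa, the main vascular growth factor, stood at 5.45 and 5.75 FPKM in wild type at 90 min, 7.52 and 15.9 FPKM at 6 h, 5.40 and 5.23 FPKM in GdX-deficient spleen at 90 min and 8.21 FPKM at 6 h. It was higher at 6 h in both genotypes without overlap, by 0.86 in wild type (SE 0.36, limma adjusted p = 0.151) and 0.54 in GdX-deficient spleen. P4ha1, a collagen prolyl hydroxylase subunit, went the other way in wild type, from 9.75 and 12.1 FPKM at 90 min to 5.09 and 6.48 FPKM at 6 h (-0.81, SE 0.30, limma adjusted p = 0.114), and stood at 8.05 and 10.6 FPKM in GdX-deficient spleen at 90 min and 9.94 FPKM at 6 h. Bnip3, a mitophagy receptor, ranged from 2.14 to 5.65 FPKM over the 7 libraries and Ero1l, an oxidase of the endoplasmic reticulum, from 7.57 to 13.5 FPKM. Both lay lower in the GdX-deficient library at 6 h than in either wild-type library of that time, by 0.34 and 0.50.

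**Figure D4:**
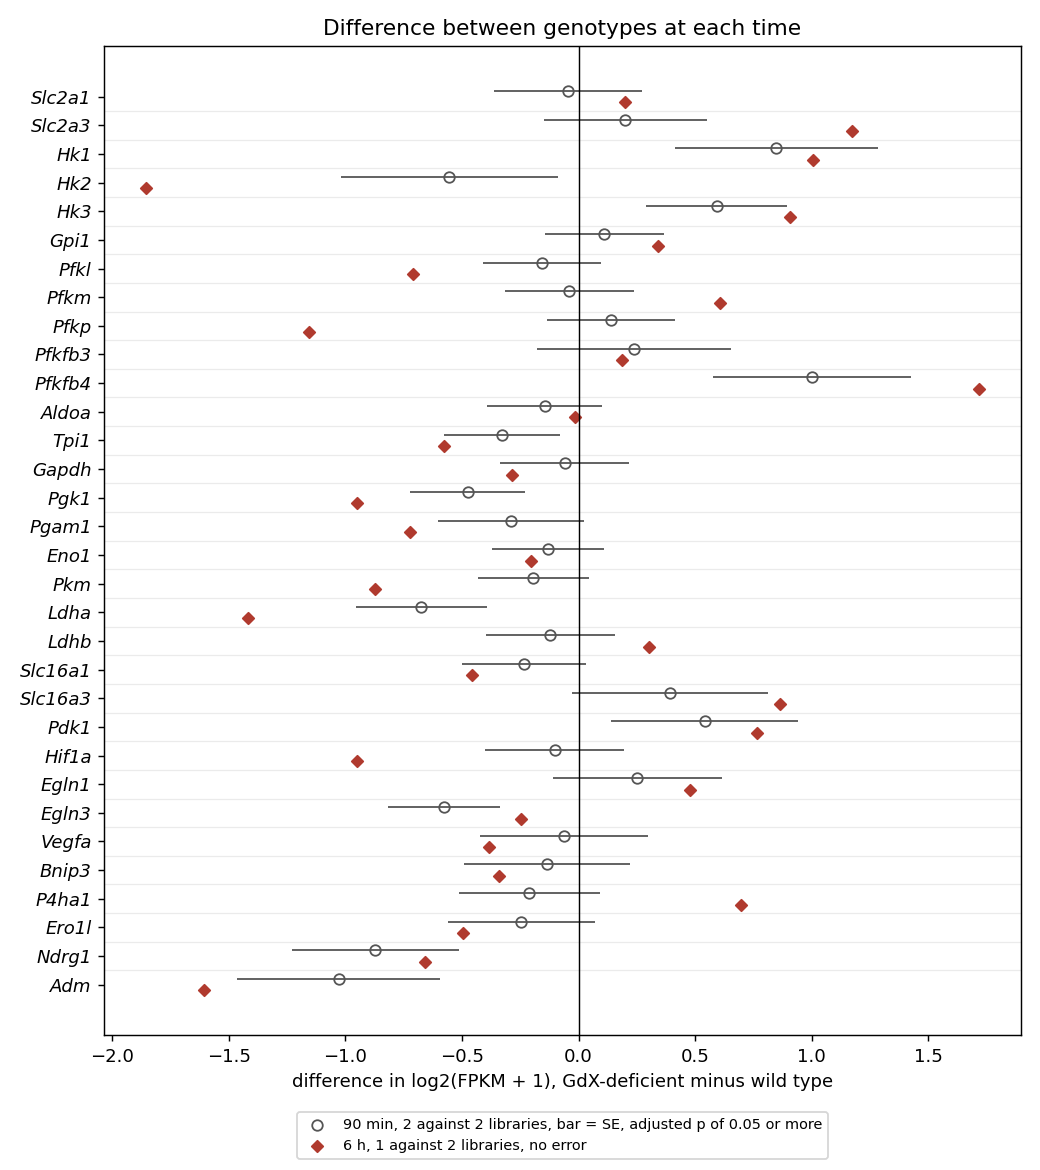
Difference in log2(FPKM + 1) between GdX-deficient and wild-type spleen for the 32 members in pathway order, at 90 min (open circles with standard errors, 2 against 2 libraries) and at 6 h (diamonds, 1 against 2 libraries, no error). No 90 min difference passed the threshold, and the diamonds lie farthest from 0 for Hk2 (-1.86), Pfkfb4 (1.72), Adm (-1.60) and Ldha (-1.42).

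The genotype differences rested in part on which GdX-deficient library was used. When replicate 1 at 90 min was left out, limma with time as a covariate called 6 members, Pfkfb4 (1.67) and Slc16a3 (0.98) higher and Hk2 (-1.61), Adm (-1.68), Ldha (-1.17) and Ndrg1 (-1.02) lower, with adjusted p from 0.0117 to 0.0366, where 14.7% of all tested genes were called. Without replicate 2 it called none (0.0615% of all genes), and the lowest adjusted p of these 6 was 0.350. The differences were then -0.93 for Ldha, 1.05 for Pfkfb4, -0.96 for Adm, -0.80 for Hk2, -0.51 for Ndrg1 and 0.28 for Slc16a3. The 5 members that were at least 2-fold apart on the log2(FPKM + 1) scale between the 2 GdX-deficient libraries at 90 min were Hk2, Pfkfb4, Slc16a3, Ndrg1 and Adm, all but Ldha of those 6. Of all genes 5.92% were that far apart in this pair, and 8.76% in the wild-type pair at 6 h, where 3 members were. In each of the 5, replicate 2 was the library nearer to the GdX-deficient level at 6 h. Replicate 2 and the 6 h library also had the higher neutrophil marker sums, whose part in these calls was not tested.

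The time calls in wild type also moved with other libraries. Without replicate 1 of the wild-type 6 h group limma called 8 members and 13.3% of all genes, among them Hif1a (log2 difference 1.34, limma adjusted p = 0.00777), Gapdh (1.11, 0.0215) and Vegfa (1.36, 0.0204). Without replicate 2 the same differences were 0.61 (limma adjusted p = 0.222), 0.64 (0.181) and 0.37 (0.574). The wild-type replicates differed along transcript length. Over the 32 members Spearman's rho between the log2 replicate difference and transcript length was -0.53 at 90 min and -0.65 at 6 h, against -0.06 in the GdX-deficient pair. Over all 11180 tested genes with a length it was -0.45, -0.59 and -0.16, so the trend was not particular to the members. With the length trend removed, an alternative added after seeing the data, 9 members were called beside 21.5% of all genes, the same 5 with Hif1a (0.99) higher and Ldhb (-0.93), P4ha1 (-0.86) and Pfkm (-0.68) lower. Markers of other cells also differed between the wild-type times. Red cell precursor markers summed to 567 and 646 FPKM at 90 min, then 202 and 277 FPKM, with 7 of 7 lower and 6 past the threshold. Red pulp macrophage markers summed to 598 and 657 FPKM and then 280.4 and 296 FPKM, with 6 of 6 lower and 4 past it. T cell markers summed to 357 and 302 FPKM and then 154 and 131 FPKM, with 6 of 6 lower and 4 past it. Of all tested genes 6.32% were called lower. B cell markers summed to 1458 and 1351 FPKM at 90 min, then 499.5 and 557 FPKM, with 5 of 6 lower (median -0.94) and 1 of 6 past the threshold, and none of 8 neutrophil markers passed, and the part of these shifts in the time differences was not tested.

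Whether time acted differently in the genotypes was examined in the added fit that takes its spread from the groups of 2 libraries. None of the 32 members passed (1 with an unadjusted p under 0.05, Pfkp, with a difference of -1.29, SE 0.44, limma adjusted p = 0.330), against 0.0703% of all tested genes. The smaller time changes of Pfkl, Pfkp, Pgk1, Pkm, Ldha and Hif1a in GdX-deficient spleen rest on 1 library at 6 h. Their difference from the wild-type changes did not pass in this fit.

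The rest of the pathway was read from lists of further genes, whose counts stand against the 10.7% of all tested genes that changed with time in wild type and the 5.44% that did with genotype as a covariate. The called shares of the lists with a call, 7.69% to 14.3% in wild type, lie near the former. With genotype as a covariate they were 6.25% for the further glycolysis enzymes and 7.69% for pyruvate oxidation. For other hypoxia-inducible targets the share was then 18.2% (2 higher and 2 lower of 22). Of 16 tested glycolysis enzymes and isoforms outside the members, 0 rose and 2 fell in wild type with time: Bpgm (-1.28, limma adjusted p = 0.0170), which makes 2,3-bisphosphoglycerate in red cells, and Galm (-1.14, 0.0193). In wild type Bpgm stood at 277 and 244 FPKM at 90 min, then at 109 and 104 FPKM. In GdX-deficient spleen it stood at 461 and 340.2 FPKM, then at 165 FPKM. Red cell precursor markers were likewise lower at 6 h in both genotypes, and their part in this was not tested. Of 13 genes of pyruvate oxidation 1 rose, Pdk4 (1.74, limma adjusted p = 0.0112), a kinase that blocks pyruvate dehydrogenase, and none fell. It stood at 1.24 and 0.58 FPKM in wild type at 90 min, then 4.25 and 6.56 FPKM at 6 h, and in GdX-deficient spleen at 0.20 and 0.60 FPKM, then at 4.28 FPKM, so it was higher at 6 h in both genotypes (1.82 with genotype as a covariate, limma adjusted p = 0.00614).

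Of 7 pentose phosphate pathway genes 1 rose in wild type, Tkt (transketolase; 0.90, limma adjusted p = 0.0396), from 66.2 and 66.5 FPKM to 119 and 131 FPKM. None of 6 other HIF pathway regulators passed. Of 22 other hypoxia-inducible targets 1 rose, Lox (1.32, limma adjusted p = 0.0265), and 2 fell, Bnip3l (-1.50, 0.00726), known for clearing mitochondria from maturing red cells, and Plod2 (-1.14, 0.0214). With genotype as a covariate Ddit4 (1.60, limma adjusted p = 0.0397) and Stc2 (1.03, 0.0355) rose and Bnip3l (-1.25) and Wsb1 (-0.97) fell. No gene of these 5 lists passed for genotype in either tested comparison, where the lowest adjusted p was 0.520 at 90 min and 0.0991 with time as a covariate.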

How the data were processed

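Spleen RNA of 7 libraries was sequenced on a BGISEQ-500, per the labels' protocols, which name both poly(A) selection and ribosomal RNA removal as options. The authors deposited 1 table of FPKM values per gene, with 2 decimals and without counts; HISAT, HISAT2 2.0.4, Bowtie2, RSEM and the build GRCm38.p5 are named, with no role or order, in the submitters' processing notes. Depth was estimated from the steps between low FPKM values and is approximate, so no count test was run.

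Values were tested as log2(FPKM + 1) with limma 3.58.1 (trend) in R 4.3.3, two-sided, over all 11378 genes with a mean of at least 1 FPKM, with Benjamini-Hochberg adjustment and a threshold of 0.05. Fits with all 4 groups gave genotype at 90 min and time in wild type, and additive fits gave genotype and time over all libraries. Comparisons that rest on the single GdX-deficient library at 6 h were described. The rule was a difference of at least 1 in mean log2(FPKM + 1), called 2-fold here, with the value outside both libraries of the pair. Every member was named, and from the other lists the genes past the threshold. Promoter windows and their coordinates come from RefSeq (GRCm38.p6), exons from GENCODE M21. The members and lists were chosen with earlier results of these data known. The test script was checked on simulated data.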

Additional observations from a re-analysis of the deposited data

Results flagged for a closer look

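The time difference of Slc2a3 went opposite ways in the genotypes. Both wild-type libraries at 6 h (4.02 and 6.37 FPKM) lay below both at 90 min (6.40 and 8.20 FPKM), and the GdX-deficient library at 6 h (12.7 FPKM) lay above both at 90 min (6.47 and 11.03 FPKM). The 2 log2 differences were 0.97 apart, and in the limma fit with its spread from the groups of 2 libraries that gap had an SE of 0.55 and an adjusted p of 0.637.

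The genotype difference of Pfkp went opposite ways at the 2 times. Both GdX-deficient libraries lay just above both wild-type libraries at 90 min (24.4 FPKM each, against 20.1 and 24.2 FPKM), and the library at 6 h lay below both (29.8 FPKM, against 56.1 and 81.8 FPKM). The change in the genotype difference was -1.29 on the log2 scale, with an adjusted p of 0.330 in the same limma fit.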

How the results depend on the processing

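Values at 6 h in GdX-deficient spleen rest on 1 library, and limma calls on 2 libraries a group. With the globin genes left out, the members' median genotype difference turned to 0.069 at 90 min and 0.044 with time as a covariate, and 2 members rose with time in wild type, where the calls over all genes went from 499 higher and 719 lower to 191 and 509. Removing the transcript length trend (added after seeing the data) gave 9 members changed with time in wild type (21.5% of all genes) and 5 with genotype as a covariate (10.8%), and no filter on low values gave 0 for the latter. The pooled spread (also added) gave 0 members for genotype at 6 h and 0 for time in GdX-deficient spleen, against 7 and 3 by the fold rule.

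With the replicate block, 9 members changed with time in wild type (20.6% of all genes) and 6 with genotype as a covariate (6.72% of all genes). The labels share only 2 replicate numbers and same-numbered libraries did not deviate together in each pair (correlations 0.77, -0.12 and 0.08), so the numbers were not taken as pairing. Crossed numbers were fitted for genotype at 90 min only, where 0 members were called, as without a block and with the uncrossed one.

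Leaving out 1 library at a time gave 0 to 8 members for time in wild type (3.96% to 15.6% of all genes), 0 to 5 for time with genotype as a covariate (1.35% to 10.6%), 0 to 0 for genotype at 90 min (0.0176% to 1.61%), 0 to 6 with time as a covariate (0.0176% to 14.7%), 6 to 9 for genotype at 6 h (16.6% to 33.7%) and 1 to 5 for time in GdX-deficient spleen (5.14% to 11.7%). The Hk2 difference at 90 min ran from -1.36 to 0.25. Quantile normalization moved the all-gene split of genotype calls at 6 h from 1879 higher and 622 lower to 951 and 881, and that of time with genotype as a covariate from 318 and 301 to 305 and 578.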
